A study of Homo sapiens with 6 samples.

Results

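The genes described are 10 members of the ADP-ribosylation machinery that deal in single ADP-ribose units: PARP6, PARP8, PARP9, PARP10, PARP11, PARP12, PARP14, PARP16 and TIPARP (also known as PARP7), together with DTX3L, the partner protein of PARP9. They were chosen by symbol, and all 10 were found among the 60708 gene identifiers of the count tables. RNA was sequenced from wild-type U2OS cells, an established human osteosarcoma line, kept for 4 days either in the solvent DMSO (3 libraries) or in 25 µM PDD00017273, a small-molecule inhibitor of the glycohydrolase PARG (3 libraries, called PARGi here). PARG breaks down poly(ADP-ribose) chains. The design is 1 line, 1 inhibitor, 1 dose and 1 time point, and the submitters describe the 3 libraries of each group as biological triplicates.

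Most members of the PARP family attach a single ADP-ribose from NAD+ to a target, a mark called mono-ADP-ribosylation, whereas PARP1, PARP2 and the tankyrases build chains. PARG digests chains but does not remove the last, protein-linked unit, which is left to other hydrolases such as the product of OARD1. The mono-ADP-ribosylating enzymes are known for roles in antiviral defence, membrane and endoplasmic reticulum stress, the Golgi and signalling by nuclear receptors, and several of them are induced by interferon. In bulk RNA a lower level can mean less RNA per cell or fewer cells that express the gene, and the counts cannot tell these apart.

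Library totals lay between 60286931 and 80605145 counts, the trimmed-mean (TMM) scaling factors between 0.995 and 1.01, and mitochondrially encoded genes took 3.48% to 3.88% of the counts. The mesenchymal and bone markers VIM, COL1A1, COL1A2, SPARC, RUNX2 and ALPL summed to between 8318 and 8904 counts-per-million (CPM) in DMSO and to between 8427 and 8469 CPM in PARGi. The markers of epithelium, blood and liver (EPCAM, CDH1, PTPRC, CD3E and ALB) summed to between 5.23 and 5.81 CPM in DMSO and between 5.14 and 5.64 CPM in PARGi. CD3E had 2, 0 and 0 counts in the DMSO libraries and 0 in each PARGi library, too few to test. Of the 6 U2OS markers, COL1A2 (log2 fold change -0.80), RUNX2 (-0.27) and SPARC (-0.083) were lower and ALPL (0.23) was higher in PARGi. Of the epithelial markers, CDH1 was higher (0.718 ± 0.0247 to 1.14 ± 0.208 CPM, SD, n = 3 each), and EPCAM, at 3.53 ± 0.236 CPM in DMSO against 3.02 ± 0.0457 CPM in PARGi, did not pass the test (edgeR adjusted p = 0.0912).

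The comparison asked whether transcripts of these enzymes differ after PARG inhibition. Transcripts of PARP11, PARP12 and PARP16 changed by -9.93% to -13.8%, and those of PARP10 and TIPARP by 13.0% and 19.7%. PARP6, PARP8, PARP9, PARP14 and DTX3L did not pass the test. All 10 genes had enough counts to be tested among 20409 genes with edgeR's quasi-likelihood test, and 5 of them passed a Benjamini-Hochberg adjusted p of 0.05, against 24.3% of all genes tested. The calls were 2 higher, where 13.2% of all genes were called higher, and 3 lower, where 11.0% were called lower. The libraries of the groups did not overlap for 6 members, against 38.0% of all genes tested. The median log2 fold change of the 10 members was 0.0023, next to -0.0070 over all genes tested, and the median absolute log2 fold change was 0.12 next to 0.11. The members did not shift in a common direction: 5 lay above 0 and 5 below.

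**Figure D1:**
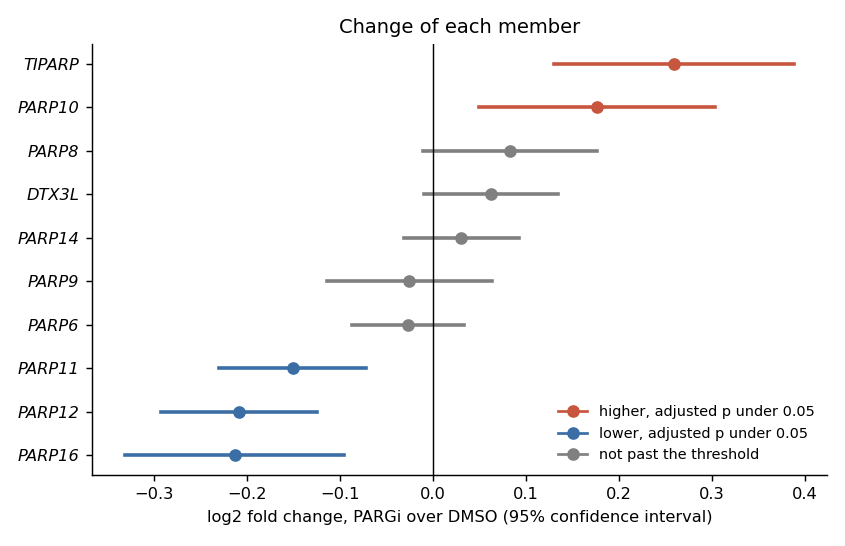
Log2 fold change of each member in PARGi over DMSO (horizontal axis) with its 95% confidence interval from edgeR, ordered by size. TIPARP and PARP10 (red) lie above 0, PARP11, PARP12 and PARP16 (blue) lie below 0, and the intervals of the other 5 genes (grey) include 0.

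PARP12, PARP11 and TIPARP are among the members with a WWE domain, which binds ADP-ribose polymers or related ligands. PARP12 and TIPARP also carry zinc fingers of the CCCH type, known for binding RNA. These 3 genes are shown first because they passed the test and moved in both directions. They do not stand for every member with a WWE domain. PARP12, an interferon-induced enzyme that resides at the Golgi, had 25.0, 24.8 and 23.5 CPM in DMSO replicates 1 to 3 and 21.1, 21.3 and 20.9 CPM in PARGi replicates 1 to 3. Every PARGi library lay below every DMSO library, and the PARGi libraries were close together. The mean fell from 24.4 ± 0.83 to 21.1 ± 0.209 CPM (SD, n = 3 each), and the log2 fold change was -0.21 (SE 0.041, 95% confidence interval -0.29 to -0.12, edgeR adjusted p = 0.000468). In percent the change was -13.5%, between limits of -18.4% and -8.27%. In GENCODE 29 (GRCh38), PARP12 (ENSG00000059378.13) occupies chromosome 7 from 140023744 to 140063721 on the minus strand. Like all 10 members it is annotated as protein-coding.

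PARP11, an enzyme linked to the nuclear envelope, to sperm head formation and to the turnover of the interferon receptor, stood at 29.5, 30.5 and 29.3 CPM in DMSO and at 26.2, 26.3 and 27.8 CPM in PARGi. The groups did not overlap, although PARGi replicate 3 came closer to the controls than the other two. Its log2 fold change was -0.15 (SE 0.038, edgeR adjusted p = 0.00506), or -9.93% between limits of -14.7% and -4.86%. PARP11 (ENSG00000111224.14) occupies chromosome 12 from 3791047 to 3873448 on the minus strand.

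TIPARP, named for its induction by the dioxin TCDD and known as a target gene and feedback repressor of the aryl hydrocarbon receptor, went the other way. It had 7.37, 7.25 and 7.77 CPM in DMSO and 8.90, 8.62 and 9.30 CPM in PARGi. All 3 PARGi libraries were above all 3 DMSO libraries, by more than the spread within either group. Its log2 fold change was 0.26 (SE 0.062, 95% confidence interval 0.13 to 0.39, edgeR adjusted p = 0.0034), a rise of 19.7%. Of all tested genes, 22.1% moved further from 0. TIPARP (ENSG00000163659.13) occupies chromosome 3 from 156673235 to 156706770 on the plus strand. It shares 37 exonic bases with TIPARP-AS1 on the opposite strand, which averaged 0.625 ± 0.126 CPM in DMSO against 0.48 ± 0.0773 CPM in PARGi (edgeR adjusted p = 0.299). With 462 to 748 counts per library TIPARP was the least deeply covered member, so that counting error alone was up to 4.65% of its value.

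**Figure D2:**
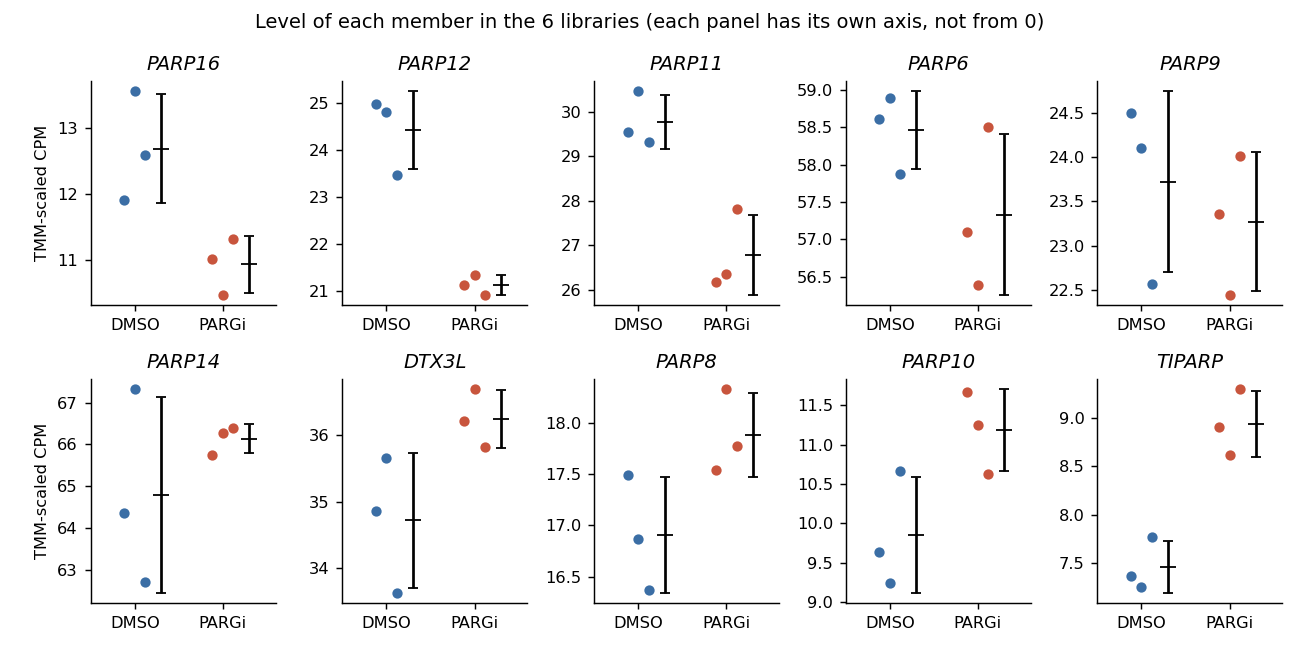
TMM-scaled CPM (vertical axes, separate for each gene and not from 0) of the 10 members in the 3 DMSO (blue) and 3 PARGi (red) libraries, with the mean and SD of each group as bars, ordered from the lowest to the highest fold change. The groups are apart for PARP16, PARP12, PARP11, DTX3L, PARP8 and TIPARP and overlap for PARP6, PARP9, PARP14 and PARP10.

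PARP16 is the family member anchored in the membrane of the endoplasmic reticulum, where it has been linked to the stress sensors PERK and IRE1. Its level was 11.9, 13.6 and 12.6 CPM in DMSO and 11.0, 10.5 and 11.3 CPM in PARGi. The groups did not overlap, but DMSO replicate 1 and PARGi replicate 3 came close to each other. The log2 fold change was -0.21 (SE 0.057, 95% confidence interval -0.33 to -0.096, edgeR adjusted p = 0.00739), or -13.8%. Without PARGi replicate 2 the log2 fold change was -0.18 and the call was lost (edgeR adjusted p = 0.0551). PARP16 (ENSG00000138617.16) occupies chromosome 15 from 65234460 to 65300618 on the minus strand. The transcripts of its reported partners EIF2AK3, which encodes PERK (29.4 ± 0.452 to 30.9 ± 0.668 CPM, edgeR adjusted p = 0.138), and ERN1, which encodes IRE1 (16.5 ± 0.542 to 17.4 ± 0.3 CPM, edgeR adjusted p = 0.212), did not pass the test. Both were chosen after their values were seen.

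PARP10, which carries RNA recognition and ubiquitin interaction motifs and was identified as a partner of MYC, had 9.64, 9.25 and 10.7 CPM in DMSO and 11.7, 11.3 and 10.6 CPM in PARGi. DMSO replicate 3 lay above PARGi replicate 3, so the ranges overlapped. Its log2 fold change was 0.18 (SE 0.061, 95% confidence interval 0.049 to 0.30, edgeR adjusted p = 0.0381). This was the weakest of the 5 calls: it passed in 8 of 17 other analyses, and its adjusted p was 0.0862 with DESeq2, 0.051 with limma-voom and 0.0538 with the replicate number as a block. When 1 library was left out, its log2 fold change was lowest, at 0.13, without DMSO replicate 2 and highest, at 0.24, when DMSO replicate 3 was left out. The call was lost without DMSO replicate 1 or 2 or PARGi replicate 1 or 2. PARP10 lies on the minus strand of chromosome 8, and 5.37% of its exonic bases are also exons of GRINA on the opposite strand. GRINA rose as well, from 198 ± 5.85 to 211 ± 7.53 CPM (log2 fold change 0.089, edgeR adjusted p = 0.0247). The sources used here do not state that counting used the strand, and the part of GRINA reads in the count of PARP10 was not tested.

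PARP9, DTX3L and PARP14 form a neighbourhood on chromosome 3 and are known as interferon-induced genes. PARP9 and PARP14 carry macrodomains, which bind ADP-ribose, and PARP9 works in a complex with the ubiquitin ligase DTX3L. PARP9 (ENSG00000138496.17) occupies 122527924 to 122564577 on the minus strand and DTX3L (ENSG00000163840.10) 122564238 to 122575203 on the plus strand, so they meet head to head and share 217 exonic bases on opposite strands. PARP14 (ENSG00000173193.15) starts 105414 bases beyond the end of DTX3L, from 122680618 to 122730840 on the plus strand.

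Of these 3 neighbours, 0 passed the test with edgeR, 0 with DESeq2 and 0 at an unadjusted p under 0.05. PARP14 was at 64.3, 67.3 and 62.7 CPM in DMSO and at 65.7, 66.3 and 66.4 CPM in PARGi, with the PARGi libraries inside the DMSO range (log2 fold change 0.030, SE 0.030, edgeR adjusted p = 0.518). PARP9 had 24.5, 24.1 and 22.6 CPM in DMSO and 23.4, 22.4 and 24.0 CPM in PARGi, again overlapping (log2 fold change -0.026, SE 0.043, edgeR adjusted p = 0.722). DTX3L was at 34.9, 35.7 and 33.6 CPM in DMSO and at 36.2, 36.7 and 35.8 CPM in PARGi, and its groups stood just apart (log2 fold change 0.063, SE 0.035, edgeR adjusted p = 0.21). The intervals leave room for changes from -2.17% to 6.63% in PARP14, from -7.63% to 4.45% in PARP9 and from -0.651% to 9.79% in DTX3L. The balance between the partners was read from the ratio of DTX3L to PARP9 CPM, which averaged 1.46 ± 0.0362 in DMSO against 1.56 ± 0.0721 for the PARGi libraries (SD, n = 3 each). Its lowest PARGi value, 1.492, and its highest DMSO value, 1.491, almost met, and no test was made of the ratio.

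PARP15, the further mono-ADP-ribosylating relative of PARP9 and PARP14, had 1 count in DMSO replicate 1, 1 count in PARGi replicate 3 and 0 in the other 4 libraries, too few to test. STAT6, the partner of PARP14, fell from 99.9 ± 2.06 to 90.1 ± 0.647 CPM (log2 fold change -0.15, edgeR adjusted p = 0.000192).

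PARP6 and PARP8 are close relatives with less well described roles, PARP6 in neurons and in mitosis. PARP6 had 58.6, 58.9 and 57.9 CPM in DMSO and 57.1, 56.4 and 58.5 CPM in PARGi, and the groups overlapped (log2 fold change -0.027, SE 0.029, edgeR adjusted p = 0.551). PARP8 had 17.5, 16.9 and 16.4 CPM in DMSO and 17.5, 18.3 and 17.8 CPM in PARGi. The lowest PARGi library of PARP8 was above the highest DMSO library by less than the SD of either group, and the difference did not pass (log2 fold change 0.083, SE 0.045, edgeR adjusted p = 0.201). The intervals run from -5.9% to 2.29% for PARP6 and from -0.749% to 13% for PARP8.

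The promoter letters of 4 members are shown: PARP12, DTX3L and PARP14, the interferon-induced members whose window held the interferon response pattern, and TIPARP, a known target of the aryl hydrocarbon receptor. Promoter windows came from RefSeq on GRCh38.p14 and were found for 9 of the 10 members, not for PARP10. Printed are the 220 bases before the RefSeq start and the 20 after it, 5′ to 3′ on the gene's strand. In the first 3, capitals mark the letters GAAANNGAAA or, on the other strand, TTTCNNTTTC, the pattern of the interferon-stimulated response element (ISRE). In TIPARP they mark GCGTG or, on the other strand, CACGC, the core of the xenobiotic response element (XRE) that the aryl hydrocarbon receptor binds.
PARP12, minus strand, chr7:140062932-140063171: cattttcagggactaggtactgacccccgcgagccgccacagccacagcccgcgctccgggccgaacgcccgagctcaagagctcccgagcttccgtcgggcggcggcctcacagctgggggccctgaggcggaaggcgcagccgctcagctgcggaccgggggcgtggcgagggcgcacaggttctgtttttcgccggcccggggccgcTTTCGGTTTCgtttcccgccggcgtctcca
DTX3L, plus strand, chr3:122564118-122564357: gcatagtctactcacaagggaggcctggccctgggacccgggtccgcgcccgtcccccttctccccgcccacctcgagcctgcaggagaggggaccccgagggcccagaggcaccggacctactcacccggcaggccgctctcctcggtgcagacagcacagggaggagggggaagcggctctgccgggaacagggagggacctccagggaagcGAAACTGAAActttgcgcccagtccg
PARP14, plus strand, chr3:122680619-122680858: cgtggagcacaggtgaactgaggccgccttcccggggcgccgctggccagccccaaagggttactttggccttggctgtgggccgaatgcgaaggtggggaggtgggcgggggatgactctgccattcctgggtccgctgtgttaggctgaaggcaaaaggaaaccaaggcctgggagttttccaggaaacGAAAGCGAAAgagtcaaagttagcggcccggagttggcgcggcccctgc
TIPARP, plus strand, chr3:156674370-156674609: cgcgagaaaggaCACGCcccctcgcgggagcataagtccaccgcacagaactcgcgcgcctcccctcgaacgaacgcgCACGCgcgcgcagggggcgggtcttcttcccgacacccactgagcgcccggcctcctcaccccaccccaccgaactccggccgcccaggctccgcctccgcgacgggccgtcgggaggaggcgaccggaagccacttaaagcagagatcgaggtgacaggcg

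Over the full windows of 300 bases (250 before and 50 after the start), the ISRE pattern was present in 3 of the 9 members, PARP12, DTX3L and PARP14, against 3.57% of 35116 RefSeq promoter windows and 24 of 40 windows of interferon-stimulated genes. Counted from the start, with -1 as the base before it, the match began at -10 in PARP12, at -6 in DTX3L and at -29 in PARP14. These 3 genes with the same pattern did not give the same result: PARP12 fell by 0.21 on the log2 scale, while DTX3L (0.063) and PARP14 (0.030) did not pass the test. Across all tested genes with a window, 26.1% of the 353 with the pattern were called (52 higher, 40 lower), next to 28.1% of the 12661 without it. The window of PARP9, separated from that of DTX3L by 347 bases, held no ISRE match. This PARP9 window (122564735 to 122565034 on the minus strand) lies wholly upstream of the GENCODE 29 start of PARP9 at 122564577. That start falls among the bases between the windows, which neither window covers. Whether the letters around it hold the pattern was not tested. The windows of PARP6, PARP12, PARP16 and TIPARP lie inside the GENCODE 29 gene and miss its start. For TIPARP that start is 156673235, before the window from 156674340 to 156674639. For PARP12 and PARP16, on the minus strand, the starts are 140063721 and 65300618. Their windows reach only to 140063201 and 65287133. The letters around these starts were not examined for either pattern. The short XRE core was present in 4 of the 9 members, against 36.5% of all windows: TIPARP (at -208 and -142, on the other strand), PARP6 (-115 and -72), PARP11 (-85) and PARP12 (-57). Of these, TIPARP rose, PARP11 and PARP12 fell and PARP6 did not pass the test. The core in PARP12 is not in capitals. The longer form TNGCGTG, in either direction, was present in 5.51% of windows and in none of the 9 members. A match describes letters in this window and not a bound site.

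Levels between genes were compared after division by the length of the annotated exons. In DMSO, PARP6 was the most abundant member, at 7.60 ± 0.0677 CPM per kilobase (SD, n = 3), followed by PARP14 (6.17 ± 0.224) and DTX3L (5.92 ± 0.174), which overlapped each other. PARP11 (4.80 ± 0.0976), PARP12 (3.89 ± 0.132), PARP16 (3.41 ± 0.222) and PARP9 (2.65 ± 0.115 CPM per kilobase) followed in that order, each apart from its neighbours in every library. The lowest 3 were PARP8 (1.68 ± 0.0559), PARP10 (1.63 ± 0.122) and TIPARP (1.48 ± 0.0531 CPM per kilobase), and there PARP8 overlapped PARP10 and PARP10 overlapped TIPARP. In PARGi the first 7 places were held by the same genes in the same order, and PARP10 and PARP8 exchanged places 8 and 9 with overlapping ranges, and PARP8 overlapped TIPARP. The distance between the highest and the lowest member was far wider than any change with the inhibitor, as the plot of length-scaled levels shows. The summed level of the 10 members was 39.2 ± 0.731 CPM per kilobase in DMSO and 38.6 ± 0.353 in PARGi.

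**Figure D3:**
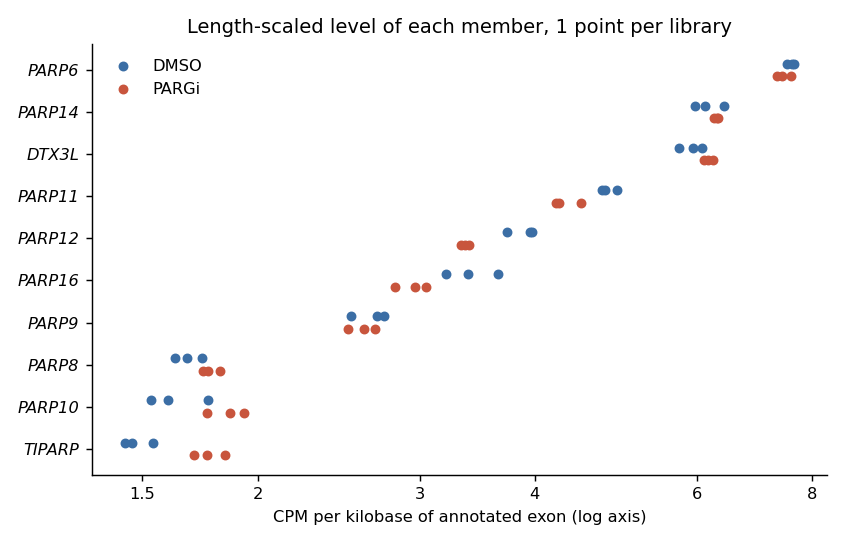
CPM per kilobase of annotated exon (horizontal log axis) of each member in the 3 DMSO (blue) and 3 PARGi (red) libraries, ordered by the DMSO mean. PARP6 is highest at 7.60 and TIPARP lowest at 1.48 CPM per kilobase in DMSO, and the shift between colours is small beside the distance between genes.

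The other genes of ADP-ribosylation were read from 3 further lists, next to the 24.3% called over all genes tested. Of 9 further enzymes for single units (PARP3, PARP4, PARP15, ART1, ART3, ART4, ART5, SIRT4 and SIRT6), 7 were tested and only PARP4, the vault-particle PARP, passed, from 66.1 ± 1.99 to 73.8 ± 1.78 CPM (edgeR adjusted p = 0.000278, log2 fold change 0.16). PARP3, a DNA break-responsive member, was at 11.0 ± 0.187 and 10.5 ± 0.562 CPM (edgeR adjusted p = 0.443). Of the 6 genes PARP1, PARP2, TNKS, TNKS2, HPF1 and the inactive ZC3HAV1, 0 passed with edgeR and 0 with DESeq2, and 1, HPF1, had an unadjusted p under 0.05. PARP1, the main chain builder, was at 422 ± 9.2 and 430 ± 10.4 CPM (log2 fold change 0.025, interval from -0.028 to 0.078). Of 10 erasers, OARD1 alone passed, from 40.3 ± 1.27 to 35.5 ± 1.09 CPM (log2 fold change -0.18, edgeR adjusted p = 0.000642). With the offset for GC content and length, each of these 3 lists had 2 calls. Median log2 fold changes were 0.085 for the further single-unit enzymes, 0.012 for the chain builders with HPF1 and ZC3HAV1, and -0.0065 for the erasers.

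Since PARP9, DTX3L, PARP10, PARP12 and PARP14 are known interferon-induced genes, 52 other interferon-stimulated genes were read beside them. Of 45 tested, 10 were higher and 3 lower (28.9%, next to 24.3% of all genes), with a median log2 fold change of 0.023. TRIM22, an antiviral ubiquitin ligase, rose from 24.3 ± 0.63 to 34.5 ± 0.722 CPM (log2 fold change 0.50, edgeR adjusted p = 4.42e-10), and IFI44L rose from 1.36 ± 0.119 to 2.11 ± 0.0593 CPM (0.63, edgeR adjusted p = 0.000827). STAT2, a subunit of the interferon-activated transcription factor, fell from 92.0 ± 0.291 to 83.2 ± 1.35 CPM (-0.15, edgeR adjusted p = 0.000198). Calls of interferon-stimulated genes thus lay on both sides of 0. Of the 5 members named here as interferon-induced, PARP10 was called higher and PARP12 lower. Among these 5, the higher side rests on PARP10 alone, which passed in 8 of 17 other analyses, whereas PARP12 passed in all 17. The other members were not sorted by this property.

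Of the 11 genes of the aryl hydrocarbon receptor pathway that were listed beside TIPARP, 8 were tested. NQO1, a quinone reductase that NRF2 also controls, was the 1 call (12.5% of those tested, next to 24.3% of all genes), rising from 79.4 ± 1.1 to 91.9 ± 0.953 CPM (log2 fold change 0.21, edgeR adjusted p = 1.85e-06). The list had 3 calls with upper-quartile scaling, with the GC and length offset or with protein-coding genes alone. AHR itself was low, with 1.47, 1.59 and 1.49 CPM in DMSO and 0.95, 1.35 and 1.07 CPM in PARGi, and its log2 fold change of -0.42 did not pass (edgeR adjusted p = 0.0525). AHRR, the receptor's repressor, was at 0.328 ± 0.095 and 0.232 ± 0.0476 CPM, with 14 to 27 counts per library (edgeR adjusted p = 0.28). CYP1B1, another target, had 0, 4 and 1 counts in the DMSO libraries and 0 in all 3 PARGi libraries, too few to test. The rise of TIPARP stood beside values below 0 for AHR and AHRR that did not pass the test.

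Among 20 genes for reported targets and partners of the members, 6 were higher and 2 lower (40%, next to 24.3% of all genes), with a median log2 fold change of 0.053. Without DMSO replicate 3, PARGi replicate 2 or PARGi replicate 3 the calls numbered 5. FOSL1, a subunit of AP-1 whose product TIPARP is reported to modify, rose from 26.4 ± 2.86 to 36.6 ± 1.21 CPM (log2 fold change 0.46, edgeR adjusted p = 3.47e-07). IFNAR1, the interferon receptor subunit linked to PARP11, rose from 55.8 ± 1.04 to 63.3 ± 0.61 CPM (0.18, edgeR adjusted p = 3.85e-05). TRIM22, IFI44L and FOSL1 lay further from 0 than any member, as the plot of tested genes by list shows.

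**Figure D4:**
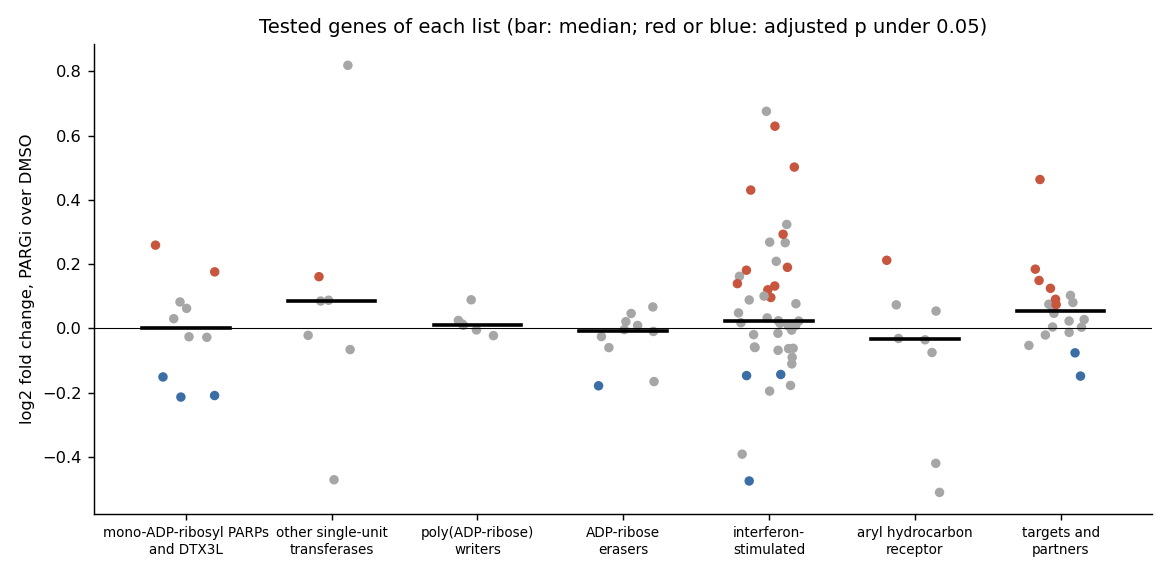
Log2 fold change in PARGi over DMSO (vertical axis) of each tested gene of the 10 members and of the 6 other lists, with black bars for medians. Red and blue points passed an adjusted p of 0.05: 5 of 10 members, 1 of 7 further single-unit transferases, 0 of 6 chain builders and relatives, 1 of 10 erasers, 13 of 45 interferon-stimulated genes, 1 of 8 aryl hydrocarbon receptor genes and 8 of 20 targets and partners.

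How firmly each change was held was read from 17 other analyses of the same counts. PARP12 passed in all 17, with log2 fold changes from -0.24 to -0.19, PARP11 in all 17 (-0.18 to -0.13) and TIPARP in all 17 (0.23 to 0.29). PARP16 passed in 16 of 17 and PARP10 in 8 of 17. PARP6, PARP8, PARP9, PARP14 and DTX3L passed in none. With upper-quartile scaling, which moved the share of higher calls over all genes from 54.5% to 40.5%, the members were 1 higher and 3 lower. With the offset for GC content and length that share was 65.8%, and the members were again 2 higher and 3 lower.

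**Figure D5:**
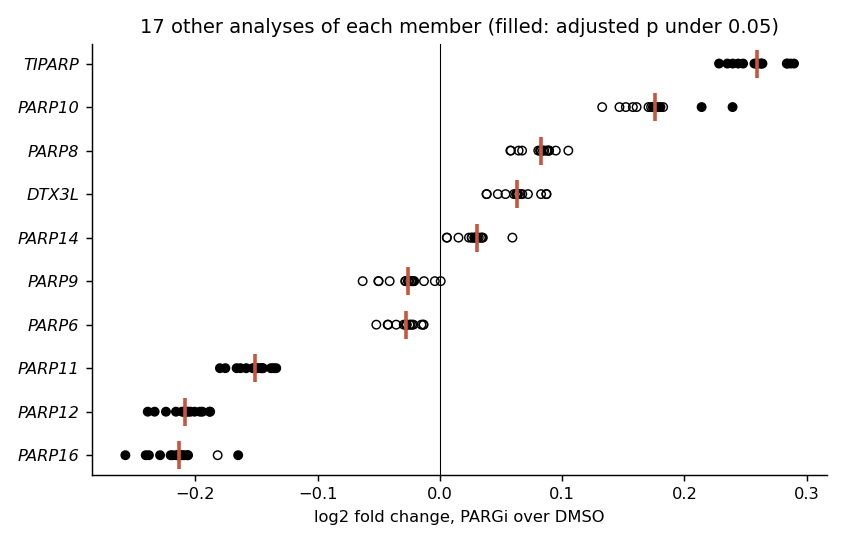
Log2 fold change in PARGi over DMSO (horizontal axis) of each member in 17 other analyses (circles, filled where the adjusted p was under 0.05) and in the reported one (red stroke). Circles are filled throughout for PARP11, PARP12 and TIPARP, in 16 of 17 for PARP16 and in 8 of 17 for PARP10.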

How the data were processed

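Total RNA of 6 U2OS libraries was prepared with a strand-preserving total RNA kit, per the labels' protocols. The values deposited by the authors are raw whole-number counts per gene, in 1 column per library with no header. The submitters' processing notes name cutadapt 1.18, STAR 2.7.3a, SAMtools 1.9, DESeq2, deepTools and the build hg38, without roles. The annotation release and the handling of strand and of reads shared between genes are not given in the sources used here. In 374 genes lying inside exons of an abundant gene on the other strand, the median was 15 counts over the 6 libraries, next to 24513 for the overlapping genes.

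Symbols were matched by Ensembl identifier without version, and positions and exon lengths came from GENCODE 29 (GRCh38), whose release may differ from that of the authors. Genes were filtered with filterByExpr, scaled by TMM and tested over all 6 libraries with edgeR 4.0.16 (R 4.3.3), glmQLFit and the two-sided glmQLFTest, with Benjamini-Hochberg adjustment over 20409 genes and a threshold of 0.05. Standard errors were taken from the F statistic and the log2 fold change. The same code was tested on simulated counts. Other analyses used DESeq2 1.42.0, limma-voom (limma 3.58.1), other scalings, filters, dispersions, a replicate block, an offset for GC content and length (loess span 0.3), and each library left out. No molecular identifiers are recorded, so counting error understates the true error.

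The members and lists were chosen with earlier results of these data known. Named were all members, PARP1, PARP3, PARP4, PARP15, AHR, AHRR and CYP1B1, genes overlapping a member's exons, and from each list up to 3 called genes with the smallest p and a mean of at least 1 CPM. Other genes were chosen after their values were seen. Genes that the rule or lists held and that have no value in the text are not reported here.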

Additional observations from a re-analysis of the deposited data

How the results depend on the processing

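Of the 10 members, PARP11, PARP12 and TIPARP kept their direction and their call in all 17 other analyses. The count of members called higher was 1 in place of 2 with DESeq2, limma-voom, upper-quartile scaling, protein-coding genes alone and the replicate block, each time because PARP10 missed the threshold, and with 1 library left out it ran from 1 to 2. The count of members called in all ran from 3 to 5 with 1 library left out, with 3 without PARGi replicate 2, where PARP10 and PARP16 were lost. At an adjusted p of 0.01, 4 members and 3117 of all genes (15.3%) were called. PARP9, never called, had a log2 fold change of 0.00066 in place of -0.026 without PARGi replicate 2, and of -0.063 without DMSO replicate 3. By the longest transcript as length, 5 of the 10 members kept their place in the order of DMSO levels. The median of the members moved to -0.022 with upper-quartile scaling. With the GC and length offset 2 further single-unit enzymes were called, against 1, and 2 erasers, against 1. In the list of chain builders with HPF1 and ZC3HAV1 there were 2 calls, against 0. The aryl hydrocarbon receptor list reached 3 calls against 1 with that offset, with upper-quartile scaling and with protein-coding genes alone, and the targets and partners fell to 5 against 8 without DMSO replicate 3 or PARGi replicate 2 or 3. The labels name no shared day or culture behind a replicate number. Over all genes tested, deviations of same-numbered libraries correlated at -0.0059, 0.016 and -0.0078. A pairing that acts on a part of the genes could be missed by these correlations. With the block 4553 genes were called. TIPARP and PARP10, the members with the fewest counts, had the widest intervals, with half-widths of 10.7 and 9.94 percentage points. The parts of counting error and of spread between libraries in these widths were not tested.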
